A study of Mus musculus with 4 samples.

Results

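The late-annotated rodent microRNAs with numbers from 1800 to 2200 were followed in resting and arthritic mouse synovium. They were chosen by name alone: every assay called mmu-miR- with a number from 1800 to 2200 was taken, with any letter, arm or version suffix, and star strands were left out. The rule found 74 of the 750 miRNA assays, and all 74 lay on panel B, the second of the 2 assay panels. Of these, 10 belonged to the 1800 series of numbers, 56 to the 1900 series and 8 to the numbers from 2000 to 2200.

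MicroRNAs (miRNAs) are short RNAs cut from a hairpin precursor, and they guide silencing proteins to messenger RNAs, mainly through the seed, which is bases 2 to 8 of the mature strand. miRNAs are numbered in the order in which they enter the public registry, so that high numbers belong to sequences found late, mostly by deep sequencing of small RNA and often at low copy number. Many of these are found in rodents but not in other mammals, and few have a known role in the joint. Some early entries from deep sequencing were later withdrawn from the registry because their sequences matched fragments of other RNAs; miR-1937, which matches transfer RNA, is among them.

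Synovium, the lining of the joint, came from around the ankle of C57BL/6J recipients. K/BxN serum transfer was the model: antibodies in the serum of arthritic K/BxN donors start joint inflammation in a healthy recipient. The non-arthritic group consisted of 2 pools at day 0, each of 3 mice, and the arthritic group of 2 pools at day 10, the peak of inflammation, each of 10 mice. Both groups have the same host strain and no transgene, deletion or drug is named for either, and a pool gives no value for single mice. Each assay was read by TaqMan PCR in 2 technical wells per pool. The result of a well is a Ct, the cycle at which the signal crosses a threshold, so that a lower Ct stands for more RNA and 1 cycle for a doubling if amplification is perfect. Recorded Ct values ended at 26.997, and the guide deposited with the data places a single copy near that end.

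The mature sequences of the miRNAs on which the results turn are given here from RefSeq (GRCm38.p6), 5′ to 3′, with the seed in capitals. miR-1839-5p, miR-1928, miR-1930, miR-1943 and miR-1982 are shown because they had a Ct in every pool, and miR-1897-3p and miR-1941-5p because most or all of their wells with a Ct were non-arthritic. The names of the assays for miR-1930, miR-1943 and miR-1982.2 give no arm, so both arms are shown and the one measured is unknown here.
miR-1839-5p, chr7:81529919-81529940, plus strand: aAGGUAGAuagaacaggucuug
miR-1897-3p, chr3:34638511-34638532, plus strand: uCAACUCGuucuguccggugag
miR-1928, chr1:74206562-74206578, minus strand: aGCUACAUugccagcuc
miR-1930-5p, chr10:77641236-77641257, plus strand: aCCUCCAUaguaccugcagcgu
miR-1930-3p, chr10:77641274-77641295, plus strand: gGUGCAGUuacuguggcugugg
miR-1941-5p, chr15:101369364-101369387, plus strand: aGGGAGAUgcugguacagaggcuu
miR-1943-5p, chr15:79375271-79375293, minus strand: aAGGGAGGaucugggcaccugga
miR-1943-3p, chr15:79375236-79375256, minus strand: cAGGUGCCagcuccucccuuc
miR-1982-5p, chr10:80828808-80828827, plus strand: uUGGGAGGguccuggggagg
miR-1982-3p, chr10:80828848-80828870, plus strand: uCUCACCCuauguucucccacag

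A mature sequence of the same name was in the RefSeq table for 39 of the 74 assays, and both or either arm for another 10. Assays without an entry, among those with a Ct, were miR-1935, miR-1937b, miR-1937c, miR-1939, miR-1944, miR-1949, miR-1959, miR-2134, miR-2135, miR-2138, miR-2146, miR-2182 and miR-2183. Precursor hairpins were listed for 50 assays and formed 44 different hairpins. Of the 44, 33 lay within the span of a protein-coding gene, 2 within the span of a long noncoding RNA gene only, and 9 in no other gene. Among the former were Mir1930 in Ube2g2, Mir1943 in Tmem184b and Mir1982 in Oaz1, the gene of an antizyme that restrains polyamine synthesis. Mir1839 lay in 2900076A07Rik and Mir1897 in Sox2ot, both long noncoding RNA genes, and Mir1928 in none. The Mir1982 hairpin begins with GU and ends with AG, the bases found at the ends of introns. The table gives gene spans without exons, so exonic and intronic positions were not assigned.

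Most of the 74 assays gave no signal in synovium. A Ct in at least 1 of the 8 wells was recorded for 25, and 49 had none. A pool is counted as having a Ct for an assay when at least 1 of its wells has one. By that count, 21 of the 74 (28.4%) were read in non-arthritic pool 1, 22 (29.7%) in non-arthritic pool 2, 19 (25.7%) in arthritic pool 1 and 16 (21.6%) in arthritic pool 2. Among the other 301 miRNA assays of panel B the shares were 31.6%, 29.9%, 29.9% and 20.9% in the same order, and both sets had their lowest share in arthritic pool 2. The 123 other mouse-named assays of panel B had lower shares, from 12.2% to 17.9%. Over single wells, 78 of 296 non-arthritic and 63 of 296 arthritic wells had a Ct for these 74 assays, beside 1023 non-arthritic and 871 arthritic wells for the other miRNA assays, so both sets had fewer arthritic wells. With 2 pools per group, an exact permutation test cannot go below p = 0.33, and no test of these shares was made.

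**Figure D1:**
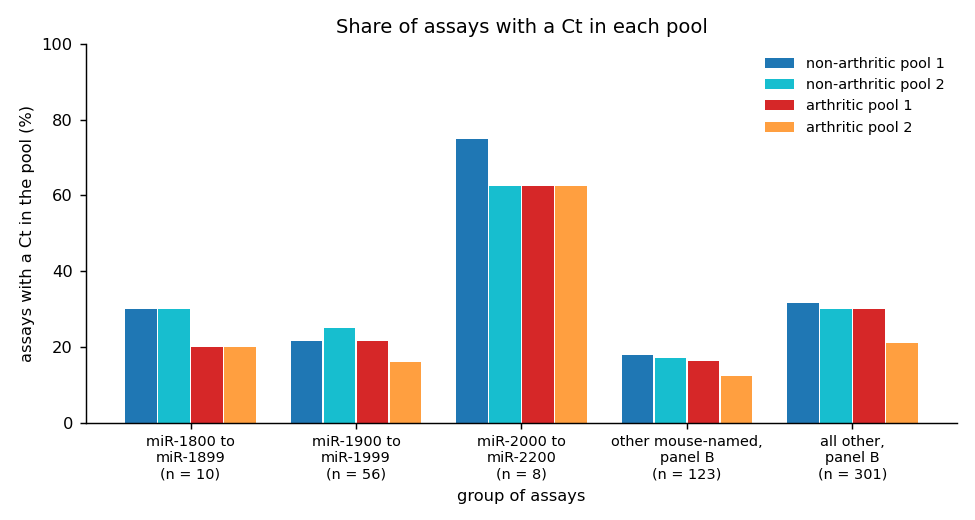
Share of assays with a Ct in each pool (vertical axis, percent) for the 3 number blocks and for other panel B assays; each bar is 1 pool. The 8 assays numbered 2000 to 2200 reach 62.5% to 75%, and the 56 of the 1900 series lie between 16.1% and 25%.

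Detection differed among the number blocks. Of the 8 assays numbered 2000 to 2200, 6 had a Ct in some well and 5 in every pool, namely miR-2134, miR-2135, miR-2138, miR-2146 and miR-2182. The 6 with a Ct, these 5 and miR-2183, have no RefSeq entry, whereas miR-2136 and miR-2139 have one and gave no Ct. Number and lack of an entry thus cannot be told apart in this block. In the 1900 series, 16 of 56 had a Ct in some well and 8 in every pool. In the 1800 series the numbers were 3 of 10 and 2 of 10. Base composition can be set beside detection only where an assay names its mature strand: the 7 such sequences with a Ct had a median GC content of 54.2% (range 40.9% to 59.1%), and the 32 without had 56.5% (range 35.3% to 68.2%), so the ranges overlapped.

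miR-1961, one of the 49 assays without a Ct, carries the seed of the let-7 family, a large set of miRNAs abundant in differentiated tissue, and its sequence is shown for that reason.
miR-1961, chr5:92788465-92788481, minus strand: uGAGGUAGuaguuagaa
Of the 9 let-7 and miR-98 assays on the chips, 7 had a Ct in all 8 wells, while miR-98, like miR-1961, had 0 wells with a Ct. Assays that share this seed thus differed in whether they gave a Ct.

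A few of the late-annotated assays gave some of the lowest Ct values of the panel. miR-2134 had the lowest Ct of all panel B miRNA assays in each of the 4 pools. Its wells read 3.36 and 3.33 in non-arthritic pool 1, 2.50 and 3.68 in non-arthritic pool 2, 3.37 and 3.72 in arthritic pool 1, and 3.42 and 2.50 in arthritic pool 2. The value of 2.50 was the lowest recorded in the data set and occurred in these 2 wells only. miR-1937b ranked 2nd in both non-arthritic pools and 3rd in both arthritic pools, and miR-1937c ranked between 5th and 8th. Of the 10 assays with the lowest Ct on panel B, 4, 3, 4 and 5 came from the 74, in the order of the pools just given. Different assays amplify with different efficiency, so these ranks order Ct values and not amounts of RNA.

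**Figure D2:**
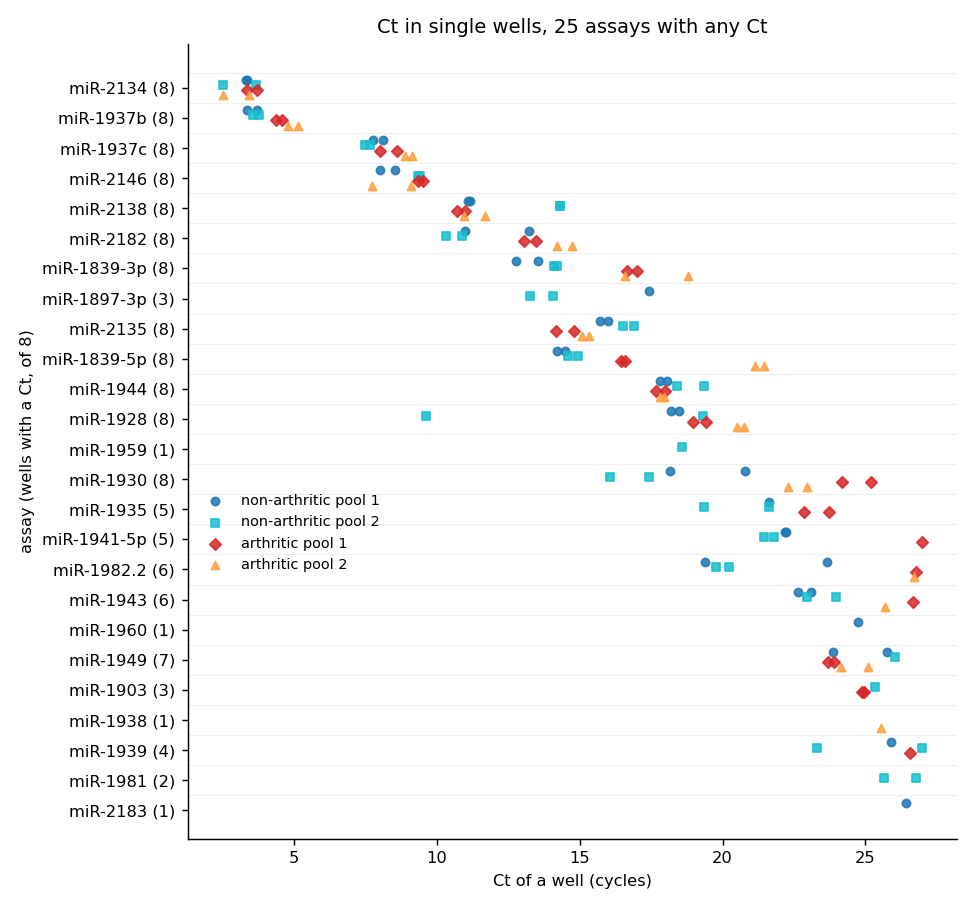
Ct of each single well (horizontal axis, cycles) for the 25 assays with any Ct, ordered by mean Ct; colours and shapes mark the pools, and the number of wells with a Ct stands beside each name. miR-2134 and miR-1937b lie under a Ct of 6 in every well, while the assays with 1 to 3 wells lie mostly above 23.

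For comparing the groups, a level was formed as the median Ct of the panel in a pool minus the Ct of the assay, in log2 units, where the median runs over the miRNA assays with a Ct in all 4 pools. The panel B median was 15.5 and 15.6 at day 0 and 16.5 and 18.4 at day 10, and arthritic pool 2, with the value of 18.4, stood apart with the fewest assays detected. Levels were compared with limma over all 209 assays with a Ct in every pool, with Benjamini-Hochberg adjustment and n = 2 pools per group throughout. The labels call the pools biological replicates, and the wells of a pool were averaged. Of the 209, 45 (21.5%) passed an adjusted p of 0.05, 20 (9.57%) higher and 25 (12%) lower in arthritic synovium. In bulk tissue, fewer cells of a type and less RNA per cell cannot be told apart.

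Of the 74 assays, 15 had a Ct in every pool and were tested. 2 of them rose (miR-2135 and miR-1949), 1 fell (miR-1982.2) and 12 did not pass. The share that passed is close to the background of all tested assays. Leaving out 1 pool cannot check the 3 calls, since a group then keeps 1 pool, so only sizes are given. Over the fits with 1 pool left out, the difference ran from 2.49 to 3.90 for miR-2135. It ran from 2.32 to 3.82 for miR-1949 and from -5.29 to -3.09 for miR-1982.2. The median log2 difference of the 15 was 0.75, beside 0.19 over all 209 and -0.40 over the other 60 tested assays of panel B. The 14 tested among the other mouse-named assays of panel B had a median of 1.38, above that of the late-annotated assays, and 9 of these 14 had both arthritic pools above. Both arthritic pools lay above both non-arthritic pools in 7 of the 15, against 39.2% of all tested assays, and below in 4, against 32.1%. The groups thus did not overlap in 11 of the 15, against 71.3% of all tested assays. By block, the median difference was -2.10 for the 2 tested assays of the 1800 series, -0.19 for the 8 of the 1900 series and 1.84 for the 5 from 2000 to 2200, with 0, 2 and 1 passing.

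**Figure D3:**
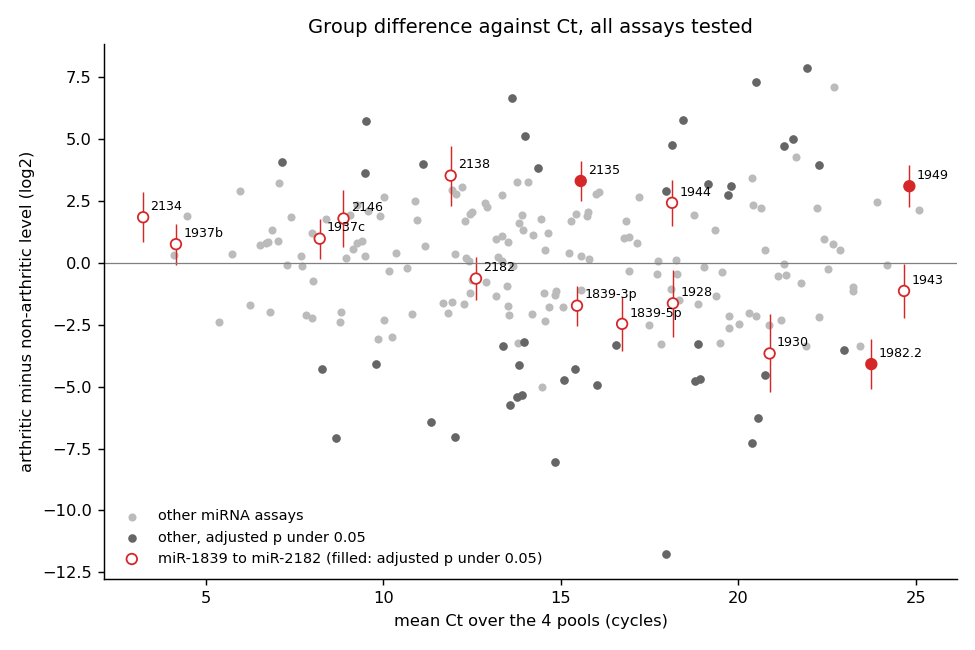
Difference in level between arthritic and non-arthritic pools (vertical axis, log2) against mean Ct over the 4 pools (horizontal axis, cycles) for the 209 tested assays; red circles are the 15 late-annotated assays with standard errors, filled where the adjusted p was under 0.05. The 3 filled circles, miR-2135, miR-1949 and miR-1982.2, lie at 3.30, 3.09 and -4.09, within the spread of the other assays.

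miR-1839 was measured on both arms of its hairpin. The wells of miR-1839-5p read 14.5 and 14.2 in non-arthritic pool 1, 14.9 and 14.6 in non-arthritic pool 2, 16.5 and 16.6 in arthritic pool 1, and 21.4 and 21.1 in arthritic pool 2. The arthritic wells were all higher in Ct than the non-arthritic wells, and arthritic pool 2 was far above pool 1. As levels, these were 1.18 and 0.89 in the non-arthritic pools and 0.00 and -2.86 in the arthritic pools, a difference of -2.47 ± 1.09 (SE), which did not pass (limma, adjusted p = 0.13). The opposite arm, miR-1839-3p, had levels of 2.37 and 1.504 against -0.31 and 0.72. Its difference of -1.73 ± 0.81 did not pass either (limma, adjusted p = 0.14). On both arms the arthritic pools lay below the non-arthritic pools without overlap, but in arthritic pool 2 the 5p arm had the lower level of the arthritic pools and the 3p arm the higher.

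miR-1982.2 had the only fall that passed. Its wells read 23.6 and 19.4 in non-arthritic pool 1 and 19.8 and 20.2 in non-arthritic pool 2. In arthritic pools 1 and 2, only 1 of the 2 wells had a Ct, at 26.8 and 26.7. The arthritic value therefore rests on single wells at the end of the recorded range, and the wells of non-arthritic pool 1 differed by over 4 cycles. Levels were -5.99 and -4.36 in the non-arthritic pools and -10.24 and -8.29 in the arthritic pools, a difference of -4.09 ± 1.02, or 17.05-fold lower (limma, adjusted p = 0.039). The adjusted p (limma) was 0.053 on raw Ct, 0.085 with the panel mean and 0.076 with a median per chip as reference. It was 0.0069 with the small nuclear RNA U6 alone as reference and 0.0196 with U6 and 2 small nucleolar RNAs. The fit with U6 alone gave every assay the same standard error, 1.80, so its p-values take no account of an assay's own spread.

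miR-1930 had a similar pattern with a wider spread. Its wells read 20.8 and 18.2 in non-arthritic pool 1, 17.4 and 16.1 in non-arthritic pool 2, 25.2 and 24.2 in arthritic pool 1, and 22.95 and 22.3 in arthritic pool 2. All 4 arthritic wells had a higher Ct than all 4 non-arthritic wells. After normalization the groups nearly met, with levels of -3.94 and -1.10 against -8.17 and -4.20. The difference of -3.66 ± 1.58 did not pass (limma, adjusted p = 0.12). The adjusted p (limma) was 0.014 with U6 and 0.034 with U6 and 2 small nucleolar RNAs as reference. The U6 value again rests on the standard error shared by all assays and not on the wide spread of miR-1930. Without arthritic pool 1 the difference was -1.68, and without arthritic pool 2 it was -5.87.

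miR-1943 also read late in the arthritic pools. Its wells read 23.1 and 22.6 in non-arthritic pool 1, 23.97 and 22.9 in non-arthritic pool 2, and a single 26.7 and a single 25.7 in arthritic pools 1 and 2. The levels, -7.33 and -7.81 against -10.15 and -7.26, overlapped, and the difference of -1.14 ± 1.10 did not pass (limma, adjusted p = 0.45).

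miR-1928 has the seed of miR-221 and miR-222, a pair made from one primary transcript that is known for restraining the cell cycle inhibitor p27. Its wells read 18.5 and 18.2 in non-arthritic pool 1, 9.61 and 19.3 in non-arthritic pool 2, 18.9 and 19.4 in arthritic pool 1, and 20.5 and 20.8 in arthritic pool 2. The well at 9.61 stands over 8 cycles below all others of the assay. With it, the difference in level was -1.64 ± 1.36 (limma, adjusted p = 0.37), and without it 0.71, an alternative added after the data were seen. On the other panel, miR-221 differed by 2.25 ± 0.77 (limma, adjusted p = 0.081) and miR-222 fell by 8.02 on the log2 scale (SE 0.86, limma, adjusted p = 0.0042).

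miR-1937b and miR-1937c, both among the low Ct values of the panel, did not pass. The wells of miR-1937b read 3.71 and 3.36, then 3.77 and 3.55, in the non-arthritic pools and 4.58 and 4.38, then 4.80 and 5.13, in the arthritic pools. In Ct, every arthritic well was above every non-arthritic well, whereas in level the arthritic pools were the higher, at 12.04 and 13.45 against 11.9996 and 11.99. The direction of this assay is thus set by the reference: its raw difference was -1.12 and its normalized difference 0.75 ± 0.82 (limma, adjusted p = 0.51). miR-1937c behaved alike, with levels of 7.60 and 8.07 against 8.20 and 9.41, a raw difference of -0.90 and a normalized one of 0.97 ± 0.81 (limma, adjusted p = 0.37).

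miR-1944 and miR-1949 complete the tested assays of the 1900 series. For miR-1944 all 8 wells lay between 17.7 and 19.3, and the levels were -2.41 and -3.22 against -1.32 and 0.53. Its difference of 2.42 ± 0.92 did not pass (limma, adjusted p = 0.10), although both arthritic pools lay above both non-arthritic pools. miR-1949 was read late in all pools, at 25.7 and 23.9 in non-arthritic pool 1, a single 26.05 in non-arthritic pool 2, 23.9 and 23.7 in arthritic pool 1, and 24.1 and 25.1 in arthritic pool 2. The Ct ranges of the groups overlapped in single wells but not in pool means. Levels of -9.27 and -10.40 against -7.29 and -6.19 gave a rise of 3.09 ± 0.85, or 8.53-fold, at the edge of the threshold (limma, adjusted p = 0.049). With the panel mean the adjusted p was 0.067, and without the miR-1928 well at 9.61, which enters the panel median, it was 0.0501. The difference was 1.12 with U6 (adjusted p = 0.72), 1.22 on raw Ct (adjusted p = 0.62) and 2.02 with U6 and 2 small nucleolar RNAs (adjusted p = 0.33), all by limma.

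Among the assays numbered above 2000, miR-2135 had the rise that passed. Its wells read 15.7 and 16.0 in non-arthritic pool 1, 16.9 and 16.5 in non-arthritic pool 2, 14.2 and 14.8 in arthritic pool 1, and 15.3 and 15.1 in arthritic pool 2. Every arthritic well had a lower Ct than every non-arthritic well, before any normalization. The levels were -0.31 and -1.06 against 2.02 and 3.21, a rise of 3.30 ± 0.82, or 9.87-fold (limma, adjusted p = 0.039). The raw difference was smaller, 1.43, with an adjusted p of 0.55, and with U6 as reference it was 1.33 with an adjusted p of 0.66, both by limma.

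miR-2138 had the largest difference above 0 among the 15 but a wide spread between the non-arthritic pools. Its wells read 11.2 and 11.1 in non-arthritic pool 1, 14.3 in both wells of non-arthritic pool 2, 10.7 and 10.97 in arthritic pool 1, and 11.7 and 10.95 in arthritic pool 2. Non-arthritic pool 1 was thus close to the arthritic pools and non-arthritic pool 2 about 3 cycles later. Levels of 4.41 and 1.34 against 5.68 and 7.10 gave a difference of 3.52 ± 1.21 that did not pass (limma, adjusted p = 0.081). miR-2134, at levels of 12.19 and 12.56 against 12.97 and 15.46, differed by 1.84 ± 1.02 (limma, adjusted p = 0.21), and its raw difference was -0.036. miR-2146 was at 7.25 and 6.26 against 7.07 and 10.01 and differed by 1.79 ± 1.14 (limma, adjusted p = 0.27), with overlapping groups. miR-2182 was the only assay of this block with a difference below 0, at 3.43 and 5.04 against 3.26 and 3.94, or -0.64 ± 0.87 (limma, adjusted p = 0.60), and its groups overlapped too.

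**Figure D4:**
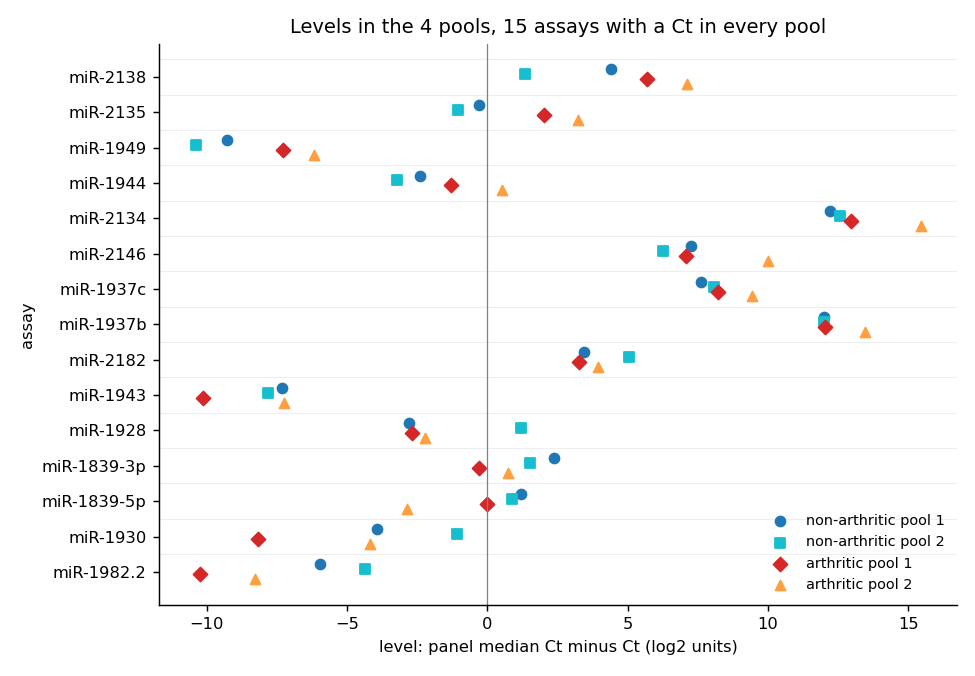
Level (horizontal axis, panel median Ct minus Ct, log2 units) in each of the 4 pools for the 15 assays with a Ct in every pool, ordered by group difference. Both arthritic pools lie to the right of both non-arthritic pools in 7 assays and to the left in 4, and arthritic pool 2 lies to the right of arthritic pool 1 in all but miR-1839-5p.

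Arthritic pool 2 moved with these differences. In 14 of the 15 assays its level was above that of arthritic pool 1, against 19 of the other 60 tested assays of panel B. In raw Ct, the median rise from arthritic pool 1 to pool 2 was 0.485 cycles for the 15 assays and 2.67 cycles for the other 60. Single assays among the 15 moved by -2.06 to 4.77 cycles, the latter miR-1839-5p. A level in arthritic pool 2 is taken against that pool's panel median of 18.4. Without arthritic pool 2, the median difference of the same 15 assays was -0.18 in place of 0.75, and without arthritic pool 1 it was 1.46. With 1 pool left in a group, the fit assumes that this pool varies like those of the other group, so only sizes are given here. Without arthritic pool 1, miR-2134 was at 3.08 and miR-2146 at 3.26, against 0.38 and 0.10 without arthritic pool 2. In the same order, miR-1944 was at 3.35 and 1.28, miR-2138 at 4.23 and 2.59, and miR-1839-5p at -3.90 and -1.26.

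The direction of the differences depended on the reference. The median over all tested assays was 0.19 with the panel median, -1.43 on raw Ct, -2.17 with U6 and 2 small nucleolar RNAs, and -2.51 with U6 alone. The median of the 15 assays was 0.75, -1.12, -0.33 and -1.22 in the same order, above the median of all assays each time. With U6 alone, 4 of the 15 had a difference above 0, and with the panel median 8. Calls moved as well: miR-1982.2 and miR-1930 fell with U6 alone or with the small nucleolar RNAs added, none of the 15 passed on raw Ct or with the panel mean (limma, 4 each at an unadjusted p under 0.05), and only miR-1949 rose with a median per chip. Of all calls, 44.4% were higher with the panel median, 1.82% with U6, 6.0% with the 3 controls and 0% on raw Ct. miR-2135, miR-2138, miR-1944 and miR-1949 kept a difference above 0 under all 6 references, and miR-1982.2, miR-1930, miR-1839-5p and miR-1928 kept a difference below 0. All 15 lie on panel B, so raw Ct, U6, the 3 controls and the panel mean each shift them by a common amount. A kept sign under these references therefore restates the size of the difference and is not separate support.

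**Figure D5:**
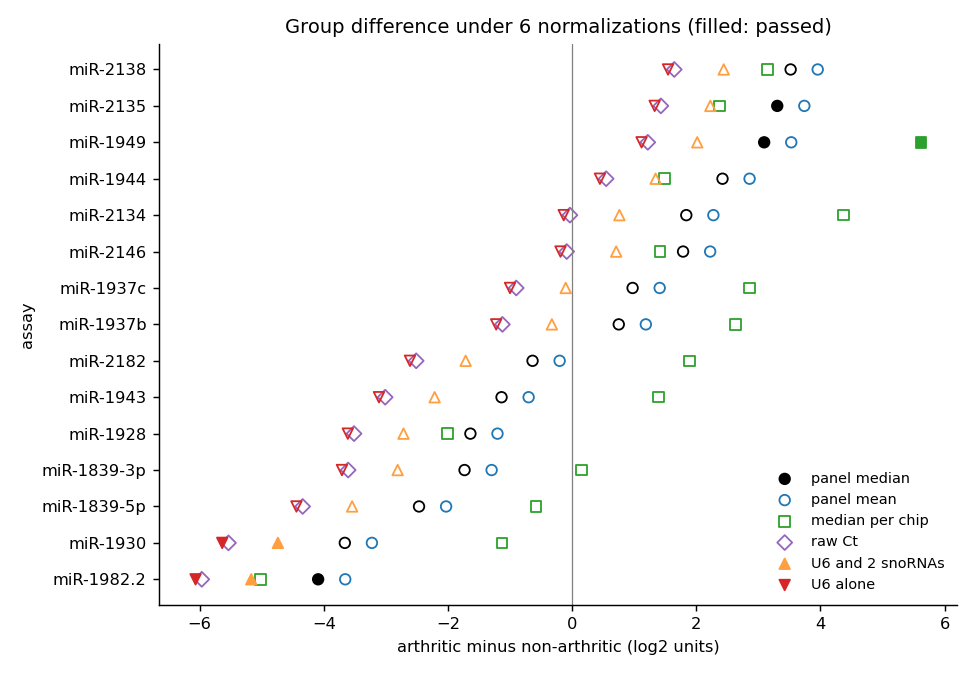
Difference between arthritic and non-arthritic pools (horizontal axis, log2 units) for the 15 tested assays under 6 references; symbols mark the reference and are filled where the adjusted p was under 0.05. U6 alone and raw Ct lie to the left of the panel median for every assay, and miR-1937b runs from -1.22 with U6 to 2.63 with a median per chip.

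A Ct in some but not all pools was recorded for 10 further assays, 8 with more non-arthritic wells and 2 with more arthritic wells. This split was not counted among the other miRNA assays, which also had fewer arthritic wells with a Ct, 871 against 1023. Among the late-annotated assays, only miR-1897-3p had a Ct in both pools of a group and in no well of the other. The muscle miRNAs miR-1 and miR-133b and the erythroid miR-486 had the same pattern, and its share over all assays was not counted. miR-1897-3p read 17.4 in 1 well of non-arthritic pool 1, where the other well had no Ct, 13.3 and 14.1 in non-arthritic pool 2, and nothing in 4 arthritic wells. If wells without a Ct lay beyond the highest recorded Ct, its arthritic level would be lower by at least 9.59 log2 units, but a well of non-arthritic pool 1 failed beside a neighbour at 17.4, so the condition does not hold in every well. miR-1941-5p read 22.2 in both wells of non-arthritic pool 1, 21.4 and 21.8 in non-arthritic pool 2, 26.99 in a single well of arthritic pool 1, and had no Ct in arthritic pool 2. Set to the highest recorded Ct in the pool without one, it did not pass (limma). Without that pool the difference was -4.38, a value that rests on the single arthritic well near the highest recorded Ct.

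The other 8 had a Ct in 1 to 5 wells. miR-1935 read 21.6 once in non-arthritic pool 1, 19.4 and 21.6 in non-arthritic pool 2, 23.7 and 22.8 in arthritic pool 1 and nothing in arthritic pool 2. miR-1939 had 4 wells between 23.3 and 26.99, of which 1 was arthritic. miR-1981, whose hairpin lies in Mtarc2 and, like Mir1982, starts with GU and ends with AG, had a Ct in non-arthritic pool 2 alone, at 25.6 and 26.8. miR-1903 differed from these in having more arthritic wells, with 24.9 in both wells of arthritic pool 1 beside 25.3 in 1 well of non-arthritic pool 2. A single well carried the signal of miR-1938, miR-1959, miR-1960 and miR-2183, and of these only the miR-1938 well was arthritic. At 18.6, the miR-1959 well lay well inside the range in which duplicate wells of other assays both read.

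Spread between wells and pools limits all of these values. Among the 74 assays, the SD between duplicate wells that both had a Ct was 1.05 and 1.78 cycles at day 0 (16 and 19 pairs). At day 10 it was 0.342 and 0.625 cycles (15 and 13 pairs). Pairs with a failed well, such as the arthritic pairs of miR-1982.2 and miR-1943, are not in these values. The value of 1.78 includes the miR-1928 pair. For the other miRNA assays of panel B the SD was 1.24 and 0.61 cycles at day 0 and 0.90 and 0.80 at day 10. The median gap in level between pools of a group was 0.87 for the non-arthritic and 1.43 for the arthritic pools, beside 0.52 and 1.38 over all tested assays.

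Some markers of other tissues also differed between the groups. Of 4 skeletal muscle miRNAs, all 4 had a Ct in each non-arthritic pool and 2 in each arthritic pool, miR-133a fell (log2 difference -7.07), and miR-1 and miR-133b had no Ct in arthritic wells. Of 3 erythroid miRNAs, 2 had a Ct in each non-arthritic pool and 1 in each arthritic pool, and miR-144 had none anywhere. The 1 tested, miR-451, did not pass (log2 difference -0.78, limma, adjusted p = 0.51). Of 3 myeloid miRNAs, 2 or 3 had a Ct per pool and 1 of the 2 tested rose, with differences from 1.77 to 3.83. Of 3 fibroblast and mesenchymal miRNAs, which mark the labelled tissue, 2 or 3 had a Ct per pool and neither of the 2 tested passed (-0.69 to 2.32). The part of these tissues in the differences of the late-annotated assays was not tested.

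The authors' deposited table of fold changes lists 10 of the 15 tested assays, and all 10 have the sign found here. That table describes the same pools, so the shared sign is not separate support. All 10 of the authors' differences lie below those found here. For miR-2135 the authors' deposited table gives a log2 difference of 2.69, for miR-2138 2.83, for miR-1944 2.08 and for miR-1930 -3.93. In the authors' deposited table miR-1937b is near 0, at 0.012, where the difference from the panel median was 0.75. miR-1928, miR-1943, miR-1949, miR-1982.2 and miR-2182 are not listed there, so 2 of the 3 assays that passed have no value to set beside it.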

How the data were processed

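RNA from each pool was reverse transcribed and read by TaqMan PCR on BioMark chips, per the labels' protocols and the file headers. The deposited values are raw Ct values, a score in cycles, with 999 in wells without a Ct, as read from the values, and the sources used here do not give the thresholds behind them. The authors also deposited group averages on a log2 scale and a fold (ratio), whose normalization the sources used here do not give. Pools were grouped by their labels. Wells were averaged, levels formed from the panel median Ct, and groups compared with limma 3.58.1 (lmFit and eBayes, two-sided, Benjamini-Hochberg) in R 4.3.3 over 209 assays, 134 on panel A and 75 on panel B, control assays left out. The fit was tested on simulated data. The median standard error was 0.87. Depth has no counterpart in Ct, and precision was limited by 2 pools per group.

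Named assays were all members with a Ct in every pool, those with a Ct in both pools of 1 group alone, other members with both wells read in some pool, and assays sharing a seed. The remaining members with a Ct were added by name. The members, lists and tests were chosen with earlier results of these data known. 2 alternatives, leaving out a miR-1928 well and the wells at the lowest Ct, were added after seeing the data. Pool numbers did not pair the samples (correlation of deviations 0.074 over 209 assays). Plots used matplotlib 3.10.9 (Python 3.11.15).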

Additional observations from a re-analysis of the deposited data

How the results depend on the processing

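Of 289 comparisons of a tested late-annotated assay with an alternative, over 20 alternatives, 228 kept their direction and side of the threshold, 33 lost and 10 gained the call, and 18 turned direction. All 33 lost calls belong to the 3 assays that passed, the only ones with a call to lose. Most of the 228 are assays that did not pass and stayed so. Under the 5 other references, miR-2135 passed in 0, miR-1949 in 1 and miR-1982.2 in 2. Of the 15 late-annotated assays tested 3 passed, against 0 on raw Ct, with the panel mean, at a Ct limit of 24, with both wells needed and in an ordinary linear model (4, 4, 3, 3 and 1 at an unadjusted p under 0.05), 1 with a median per chip, at a Ct limit of 22 (11 tested), with pools without a Ct at the highest Ct (25 tested, where miR-1897-3p passed and none of the 3 did) and with the second well on chip A3 left out for arthritic pool 2, and 0 to 8 with 1 pool left out. It was 0 without either non-arthritic pool (5 without pool 1 and 0 without pool 2 at an unadjusted p under 0.05), 8 without arthritic pool 1 and 3 of 18 tested without arthritic pool 2 (miR-1982.2, miR-1930 and miR-1941-5p, of which only miR-1982.2 is among the 3). Over all assays, 45 passed, against 8 on raw Ct, 25 with the panel mean, 25 with pools without a Ct at the highest Ct, 0 in the ordinary linear model (55 at an unadjusted p under 0.05), 79 at an adjusted p of 0.10 and 0 to 121 with 1 pool left out (42 and 25 at an unadjusted p under 0.05 without non-arthritic pools 1 and 2). The median difference of the late-annotated assays, 0.75, was -1.22 with U6, -0.33 with the 3 controls, -1.12 on raw Ct and -0.76 to 1.46 with 1 pool left out, the former over 18 assays. With the pool number as a replicate block, which the data do not bear out as a pairing, 5 late-annotated assays and 66 assays in all passed. Detection in every pool fell from 15 assays to 11 at Ct limits of 24 and 22 and to 12 with both wells needed.

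Directions turned with U6 for miR-1937b (-1.22), miR-1937c (-1.0), miR-2146 (-0.19) and miR-2134 (-0.14), with the 3 controls for miR-1937b (-0.33) and miR-1937c (-0.10), and on raw Ct for miR-1937b (-1.12), miR-1937c (-0.90), miR-2146 (-0.088) and miR-2134 (-0.036). With a median per chip they turned for miR-1839-3p (0.15), miR-1943 (1.39) and miR-2182 (1.89). With a pool left out they turned for miR-1928 (-3.47 to 0.54) and miR-2182 (-1.28 to 0.35) without non-arthritic pool 2, for miR-1943 (-2.80 to 0.31) without arthritic pool 1 and for miR-1937b (-0.18 to 1.46) without arthritic pool 2, and without the low well miR-1928 was at 0.71. With U6, the 3 controls and raw Ct, every assay shifted by a common amount. The assays that turned there are those whose difference above 0 was smaller than the shift. A median per chip likewise shifted all assays of a chip alike. Why the references differ was not tested, nor was the cause of the turns with a pool left out. The arthritic wells of miR-1982.2 and miR-1943 and the wells of miR-1949 lie near the end of the Ct range, where the deposited guide places a single copy.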
